A study of Mus musculus with 4 samples.

Results

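ATP-binding cassette (ABC) transporters and P-type ATPases are large families of membrane proteins that spend ATP to move lipids, bile constituents, drugs and ions. The genes described here are the listed genes whose symbol fits the pattern Abca to Abcg followed by a digit, or Atp1, Atp2, Atp7, Atp8, Atp9, Atp10, Atp11 or Atp13 followed by a, b or c. That rule, which uses the symbol only, found 46 of the 7000 genes listed, of which 26 are ABC genes and 20 are Atp genes. The rule is broader than the name of the families, since Atp1b1 and Atp1b3 encode beta subunits of the sodium pump, which do not themselves split ATP, and Abce1, Abcf2 and Abcf3 encode soluble proteins that are not transporters.

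The RNA came from the livers of 4 male wild-type FVB/N mice, put at weaning on a selenium-deficient diet with sodium selenite added at 0 ppm Se (0 Se, mice 1 and 2) or 0.1 ppm Se (0.1 Se, mice 4 and 5) for 6 weeks. Total RNA was depleted of ribosomal RNA and sequenced. Each gene has the authors' log2 mean of its CPM, the read count scaled to the size of the library, over the 4 libraries, both diets together, and the length of its mRNA. The diets are not compared here, because the columns that compare them are the study's own results and 0 columns hold a single mouse. Each value is therefore 1 mean without replicates or error, the depth of the libraries is unknown, and whether genes with close levels differ cannot be said.

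The listed genes stand in rising order of the p-value of the study's diet comparison and end at a p-value below 1, so whether a gene is listed depends in part on that comparison. RefSeq has 88 coding genes whose symbol fits the rule, and the other 42, among them Abcb11, Abca1 and Atp2a2, are not analysed here. A level is given as mean CPM per kilobase of mRNA (CPM/kb), which allows genes of different length to be set side by side.

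ABC transporters have membrane-spanning domains joined to cassettes that bind and split ATP. In hepatocytes those of the canalicular membrane secrete phospholipid, sterols and conjugated organic anions into bile, and others face the blood or lie in peroxisomes, mitochondria and lysosomes. P-type ATPases pass through a phosphorylated state during each cycle. They include the sodium, calcium and copper pumps, and flippases that move phospholipids to the cytosolic side of membranes.

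Levels of the 43 genes described singly ran from 0.481 CPM/kb for Abcc4 to 189 CPM/kb for Abcd3. The median of all 46 was 12.0 CPM/kb, against 6.19 CPM/kb over all listed genes. Of the 46 genes, 28 (60.9%) lay above that general median, where 50% of listed genes lie. The highest 25% of listed genes held 19 of them (41.3%) and the lowest 25% held 10 (21.7%). The 10 highest genes made up 69.7% of the summed level of all 46. As a group they are long mRNAs. The median length was 5120 bases against 2959.5 bases for all listed genes, and 40 of 46 were longer than that. Per kilobase of coding sequence, 25 of the 46 genes lay above the general median on that scale, so the count depends on the length used.

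**Figure D1:**
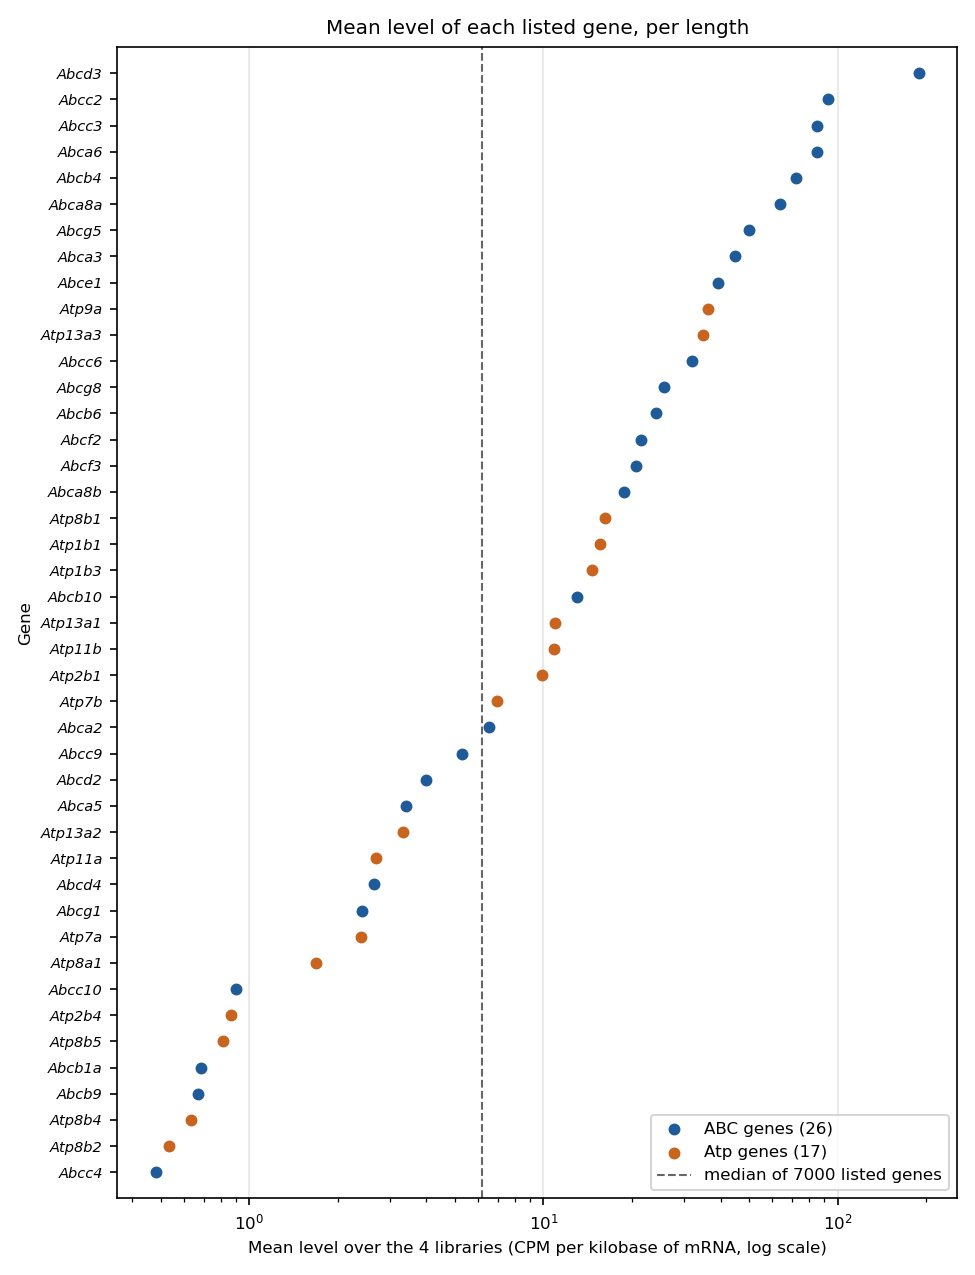
Mean level of 43 of the genes in CPM per kilobase of mRNA (log axis), ordered from Abcd3 at 189 to Abcc4 at 0.481; each point is the authors' mean over the 4 libraries and has no error bar. Blue points are ABC genes and orange points Atp genes, and the dashed line marks the median of all listed genes, 6.19.

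**Figure D2:**
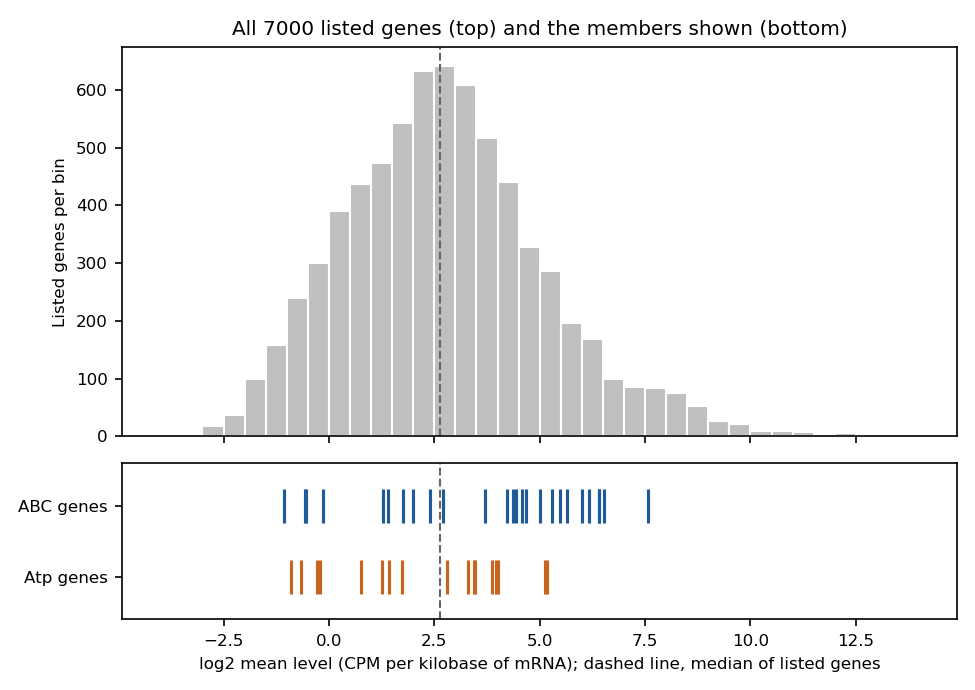
Distribution of the log2 mean level (CPM per kilobase) of the 7000 listed genes in bins of 0.5 (grey bars), with 1 tick below for each of 26 ABC genes and 17 Atp genes. The 43 ticks lie between 0.481 and 189 CPM/kb, within a range of listed genes from 0.0764 to 15367 CPM/kb. Of the ticks, 26 lie to the right of the dashed median.

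The reads that counted were those with 1 alignment only, with up to 2 mismatches, so a gene with a close copy lost reads. For each gene, every 50-base window of the nearest annotated mRNA was aligned to 1 mRNA per coding gene with the same limits. All windows were unique in 30 of the 43 genes described singly and at least 99% in 35. The greatest loss was in Abcb1a, which encodes a P-glycoprotein that exports drugs, with 66.2% of windows unique and 1656 windows shared with its neighbour Abcb1b. The next lowest shares were 91.1% in Abcb4, 94.6% in Abca8a and 94.8% in Abca8b.

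**Figure D3:**
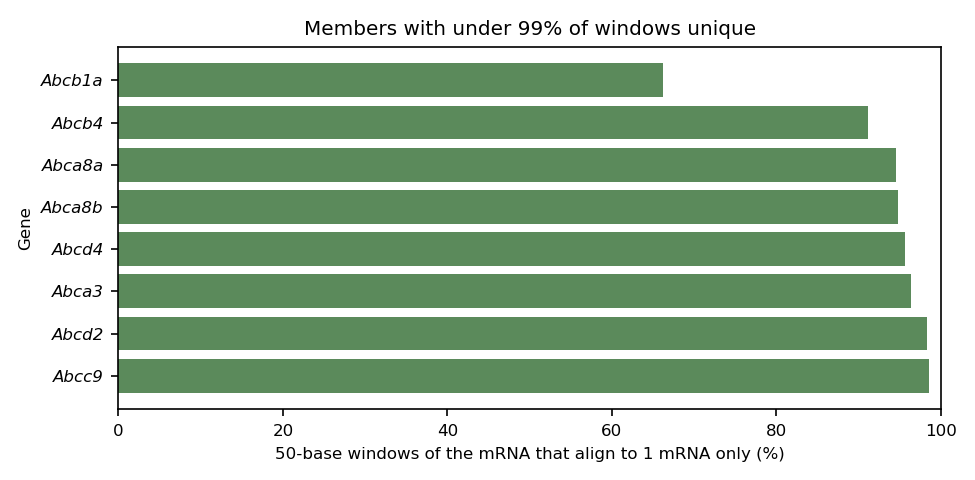
Percentage of the 50-base windows of each mRNA that align to 1 mRNA only, for the 8 of 43 genes under 99% (axis from 0 to 100%). Abcb1a stands apart at 66.2%, and the other 7 lie between 91.1% and 98.6%.

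Reads from within a stretch that 2 genes share cannot be given to either. Abcb1a and Abcb1b share 13 stretches of 50 bases or more without a difference, the longest of 338 bases. A stretch of 174 bases, in exons 27 and 28 of both genes, is shown with 30 bases on each side. Capitals mark this unbroken identical stretch, and most of the lowercase bases are also identical in both genes. The stretch lies on the plus strand of NCBIM37 at chr5:8746584-8747456 in Abcb1a and at chr5:8864190-8865851 in Abcb1b, spans including the intron. It is coding sequence.
Abcb1a: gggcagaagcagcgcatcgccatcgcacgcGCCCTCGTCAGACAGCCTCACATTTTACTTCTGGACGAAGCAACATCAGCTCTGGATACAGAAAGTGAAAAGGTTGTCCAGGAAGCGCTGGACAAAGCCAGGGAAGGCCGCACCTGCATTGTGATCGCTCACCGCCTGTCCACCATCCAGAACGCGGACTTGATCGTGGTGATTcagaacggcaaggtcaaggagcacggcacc
Abcb1b: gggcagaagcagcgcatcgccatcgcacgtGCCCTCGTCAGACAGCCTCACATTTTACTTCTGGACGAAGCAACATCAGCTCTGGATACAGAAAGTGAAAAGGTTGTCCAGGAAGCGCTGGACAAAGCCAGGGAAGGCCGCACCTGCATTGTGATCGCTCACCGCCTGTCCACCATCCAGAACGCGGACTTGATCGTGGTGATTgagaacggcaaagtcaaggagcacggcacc

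Abca8a and Abca8b, which lie 29.8 kb apart on chromosome 11, share 3 such stretches. The longest, of 97 bases, is coding sequence on the minus strand, at chr11:109930161-109930763 in exons 15 and 16 of Abca8a and at chr11:109826324-109828069 in exons 14 and 15 of Abca8b (NCBIM37). It is printed the same way, and a read of 50 bases from within the capitals fits both genes.
Abca8a: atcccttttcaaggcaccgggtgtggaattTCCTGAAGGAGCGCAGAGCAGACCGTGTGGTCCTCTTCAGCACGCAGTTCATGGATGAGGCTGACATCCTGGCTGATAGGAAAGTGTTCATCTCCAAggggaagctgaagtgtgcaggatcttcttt
Abca8b: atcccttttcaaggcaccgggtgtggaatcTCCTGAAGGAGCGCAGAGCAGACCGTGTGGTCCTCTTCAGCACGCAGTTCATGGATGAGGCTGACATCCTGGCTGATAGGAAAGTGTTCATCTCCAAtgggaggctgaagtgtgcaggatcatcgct

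Of the 8 canalicular export genes set out for description, 5 were listed, and 4 of these lay above the general median. Abcc2, which exports bilirubin glucuronides and other conjugates, was highest at 92.4 CPM/kb. Abcb4, the phosphatidylcholine floppase of bile, was at 72.1 CPM/kb. Abcb1a was at 0.688 CPM/kb, from a mean of only 3.43 CPM before division by length. Dividing by the unique part of its mRNA gave 1.04 CPM/kb, still far below Abcb4 at 79.1 CPM/kb on the same scale. Abcb4 and Abcb1a lie 145.1 kb apart on chromosome 5, with Abcb1b between them.

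Abcg5 and Abcg8 encode the subunits of the sterol exporter that sends cholesterol and plant sterols into bile. Abcg5 was at 49.9 and Abcg8 at 25.7 CPM/kb, a ratio of 1.94 of the level of Abcg5 to that of Abcg8. Per kilobase of coding sequence the ratio was 1.24, so it depends on the length used. The genes are read in opposite directions, and the start sites of the transcripts nearest to the listed lengths are 110 bases apart on chromosome 17. Another annotated transcript of Abcg8 starts at 85075642, within Abcg5. The 109 bases between them, chr17:85082352-85082460 of NCBIM37, are shown because these transcripts are read outwards from it. The sequence is that of the plus strand, the direction of Abcg8, and capitals mark matches to GATAA or its reverse complement TTATC, the core bound by GATA factors, a motif chosen after the sequence was seen. Of the 109-base windows before the starts of 32851 RefSeq promoters (GRCm38.p6), 9.36% hold at least 1 match on either strand and 0.788% hold at least 2, as this one does. The GC content of this sequence is 45.9%, and the other windows were not matched to it in base content. The match is a description of the letters only.
Abcg5-Abcg8: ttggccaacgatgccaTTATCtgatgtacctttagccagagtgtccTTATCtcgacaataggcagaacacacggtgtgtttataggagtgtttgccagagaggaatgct

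Other transporters of the Abcc group divided into high and low genes. Abcc3, an exporter of conjugates towards the blood, was at 85.4 CPM/kb, close to Abcc2 with a ratio of 1.08 of Abcc2 to Abcc3. Abcc6, the liver transporter whose loss causes ectopic mineralisation, was at 31.9 CPM/kb. Abcc10 and Abcc4 were at 0.903 and 0.481 CPM/kb, the latter 178-fold below Abcc3. As mean CPM, before division by length, Abcc4 was at only 2.75, so the size of this fold is uncertain. Abcc9, which encodes a sulfonylurea receptor of potassium channels in muscle and in cells around vessels, was at 5.29 CPM/kb. Abcc8, the other sulfonylurea receptor, is not analysed here.

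**Figure D4:**
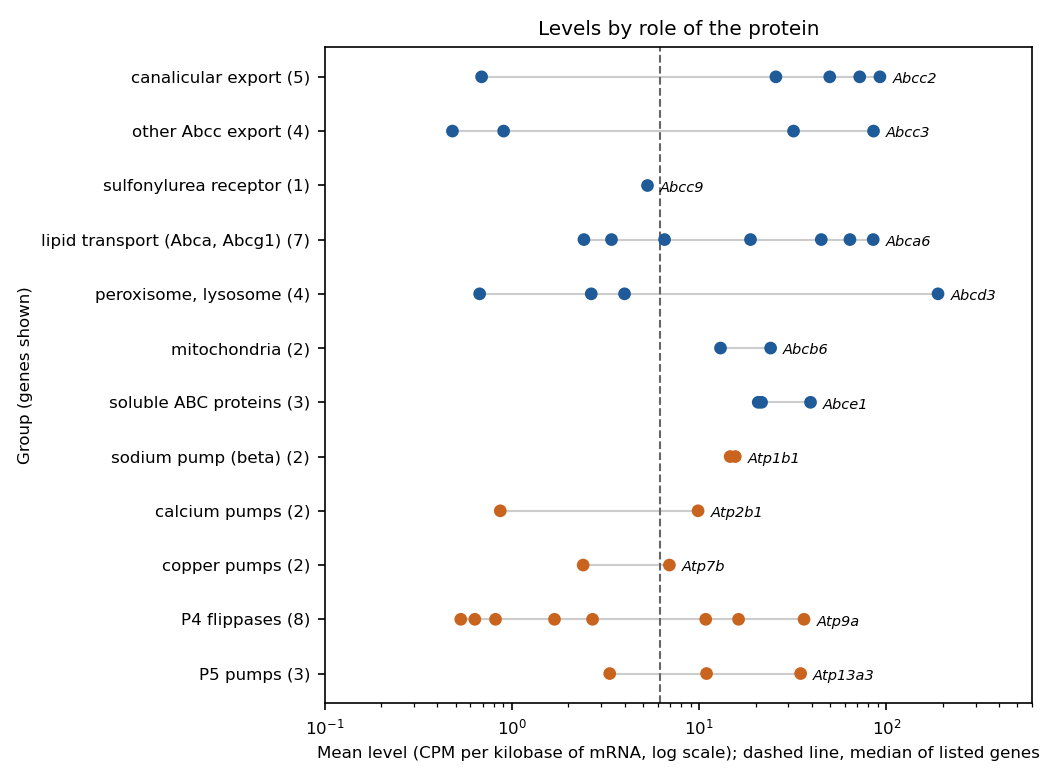
Mean level (CPM per kilobase of mRNA, log axis) of 43 genes grouped by the role of the protein, with the number of genes shown in each group and the name of its highest gene; blue points are ABC genes, orange points Atp genes. The canalicular export group spans from 0.688 to 92.4 CPM/kb and the P4 flippases from 0.533 to 36.3 CPM/kb, and the dashed line is the median of all listed genes.

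Of the 15 lipid transporters set out from the Abca and Abcg families, 7 were listed, and 5 of these lay above the general median. Abca6 was highest at 85.1 CPM/kb, followed by Abca8a at 63.9 and Abca3, known for surfactant lipid storage in lung, at 44.9 CPM/kb. Abca8b was at 18.8 CPM/kb, with a ratio of 3.40 of Abca8a to Abca8b. The listed length of the Abca8b mRNA, 6178 bases, is longer than the nearest annotated one of 5052 bases, and per coding kilobase the ratio was 3.09. Abca8b, Abca8a, Abca6 and Abca5 lie in this order on chromosome 11, each within 80.8 kb of the next, and Abca5 was at 3.40 CPM/kb, 25.02-fold below Abca6 per kilobase of mRNA and 16.0-fold below it per coding kilobase. Abca2, a transporter best known in brain, was at 6.53 CPM/kb, and Abcg1, a sterol exporter of macrophages and other cells, was lowest of the 7 at 2.42 CPM/kb. The listed length of Abcg1, 5818 bases, is also far from the nearest annotated one of 3610 bases. Per coding kilobase Abcg1 was at 7.05 CPM, below the median of listed genes on that scale, 12.1.

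Abcd3, which brings branched-chain and long dicarboxylic fatty acids into peroxisomes, had the highest level, both per kilobase and as mean CPM (642). It stood at position 281 of the 7000 listed genes. Its relatives were much lower, with Abcd2, a peroxisomal transporter of very long chain fatty acids, at 3.99 CPM/kb and Abcd4, which takes part in lysosomal release of vitamin B12, at 2.65 CPM/kb. The lysosomal peptide transporter Abcb9 was at 0.672 CPM/kb, from a mean of only 2.24 CPM before division by length. The mitochondrial transporters Abcb6 and Abcb10, both tied to heme synthesis, were at 24.09 and 13.004 CPM/kb. The soluble proteins were all above the general median, with Abce1, needed to recycle ribosomes, at 39.4, Abcf2 at 21.6 and Abcf3 at 20.7 CPM/kb.

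The sodium pump pairs a catalytic alpha subunit with a beta subunit that brings it to the plasma membrane. The beta subunits Atp1b1 and Atp1b3 were at 15.6 and 14.6 CPM/kb, a ratio of 1.07 of Atp1b1 to Atp1b3 that was 1.29 per coding kilobase. Fxyd1 and Fxyd5, small regulators of the pump, were at 173 and 3.13 CPM/kb.

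Only plasma membrane calcium pumps were listed among the calcium pumps, 2 genes of the 9 set out. Atp2b1 was at 9.87 CPM/kb, and Atp2b4 was 11.4-fold lower at 0.866 CPM/kb. The copper pumps were both listed. Atp7b, the Wilson disease gene, which loads copper onto ceruloplasmin and moves it into bile, was at 6.93 CPM/kb, and Atp7a, the Menkes disease gene of most other tissues, was at 2.40 CPM/kb. The ratio of Atp7b to Atp7a was 2.89 per kilobase of listed mRNA and 1.71 per coding kilobase. For these genes the nearest annotated mRNAs, of 4044 and 4900 bases, are shorter than the listed 4711 and 8146 bases.

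Of the 11 copper handling genes set beside them, 8 were listed, and 7 of these were above the general median. Of the 7, ceruloplasmin (Cp) was at 449 CPM/kb, the copper chaperone Atox1 at 87.7, Commd1 at 44.6 and the copper importer Slc31a1 at 44.3 CPM/kb. The gene below the general median, Slc31a2, named after its value was seen, was at 4.98 CPM/kb, between the copper pumps.

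Of the P4 flippases, 8 are described. Atp9a, an endosomal member, was at 36.3 CPM/kb, Atp8b1, whose loss causes intrahepatic cholestasis, was at 16.2 and Atp11b at 10.8 CPM/kb, all 3 above the general median. The other 5, Atp11a, Atp8a1, Atp8b5, Atp8b4 and Atp8b2, lay between 0.533 and 2.69 CPM/kb, all under the general median. Before division by length Atp8b5, Atp8b4 and Atp8b2 had means of only 3.65, 3.50 and 2.91 CPM. Most P4 flippases leave the endoplasmic reticulum only with a Tmem30 subunit, and Tmem30a was at 81.8 and Tmem30b at 11.4 CPM/kb.

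The P5 pumps, found on membranes inside the cell, were headed by Atp13a3, a polyamine transporter, at 34.9 CPM/kb. Atp13a1, which removes misplaced proteins from the endoplasmic reticulum, was at 10.95 CPM/kb and Atp13a2, a lysosomal polyamine exporter, at 3.33 CPM/kb.

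Genes of the pathways around these pumps were set beside them from lists. Of 11 bile acid genes 4 were listed, all above the general median. The conjugating enzyme Baat was at 206 CPM/kb, the bile acid receptor Nr1h4 at 56.3, its target Nr0b2 at 31.6 and Cyp7a1, the rate-limiting enzyme of bile acid synthesis, at 30.9 CPM/kb. Of 8 sterol efflux partners 5 were listed, all above the general median, led by Apoa1, the acceptor of exported cholesterol, at 7619 CPM/kb, with Nr1h3, a receptor that raises sterol exporter genes, at 52.5 CPM/kb. The peptide transporters Tap1 and Tap2, ABC genes by structure that the symbol rule leaves out, were at 9.01 and 10.2 CPM/kb.

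Liver RNA is a mixture, and in bulk tissue fewer cells of a type and less RNA per cell cannot be told apart. The hepatocyte markers Apob and Serpina1c, listed of 5, were at 1573 and 1290 CPM/kb, and Alb, Ttr and Cps1 are not analysed here. Markers of other liver cells were present too. The 4 Kupffer cell markers lay between 5.15 and 74.8 CPM/kb, the 3 listed endothelial markers of 4 between 15.1 and 76.9, and the 4 stellate cell markers between 5.74 and 98.3 CPM/kb. The erythroid marker Alas2, listed of 3, was at 19.1 CPM/kb, and 0 of the 4 cholangiocyte, 3 muscle and 2 adipocyte markers were listed. A marker that is not listed may be high or low, since listing depends in part on the diet comparison and in part on a minimum level. The share of any cell type in the levels of the 46 genes was not tested.

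In the genome the 43 genes lie on 19 chromosomes and have 6 to 48 exons, with a median of 28. The genes span 8.7 kb for Abcb6 to 229.3 kb for Atp8a1. The GC content of the mRNAs ran from 39.7% in Atp13a3 to 62.4% in Atp13a2. Of the highest genes, Abcd3 lies on chromosome 3 from 121461827 to 121518220 with 23 exons and Abcc2 on chromosome 19 from 43856682 to 43912441 with 32 exons. Coordinates are those of NCBIM37.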

How the data were processed

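RNA of 4 livers was sequenced by the authors (50 cycles, single-end, stranded kit) and aligned with Bowtie to RefSeq mRNAs of mm9, the longest isoform for each gene, keeping reads that aligned once with no more than 2 mismatches. The authors' deposited edgeR table holds per gene a length, a log2 mean CPM over the 4 libraries, and 3 columns of their diet comparison (log2 fold change, p-value, FDR), which were not used; the p-values were read only to check the order of the table. Their versions were not stated, and the table has 0 columns for single mice. A count test was planned only for the case that counts were given, so no diet test, replicate check, interval or leave-one-out value was computed.

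The log2 mean CPM as deposited by the authors was raised to a power of base 2 and divided by the deposited length in kilobases. Exponentiating a log2 mean gives an approximate mean CPM. Unlisted genes were left out. Locations come from GENCODE vM1 on NCBIM37, the assembly of mm9. All 46 symbols matched, and 42 had a transcript within 10% of the listed length. Windows were aligned with bwa 0.7.19 to 1 transcript per coding gene (the nearest in length for the 46, otherwise the longest). The window count was tested on simulated data with known overlaps. Python 3.11.15, pandas 2.3.3 and matplotlib 3.10.9 were used.

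The members and the lists of roles, partners and markers were chosen with earlier results of these data known. The values of 3 of the 46 genes are not reported here singly, and these genes are left out of the figures. Every other listed member could be named, with the highest and lowest of each role group and up to 4 genes of each partner list. The protein motif counts and the protein-based length were not run. Added after the data were seen were the coding length of GENCODE vM1 and the unique windows.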

Additional observations from a re-analysis of the deposited data

How the results depend on the processing

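Of the 46 genes, 28 lay above the median of all listed genes per kilobase of mRNA. With no division by length it was 33, and with the coding length of GENCODE vM1, added after the data were seen, 25. Of the members with a mean of at least 2 CPM, 26 lay above the median of the listed genes that also passed, 7.08 CPM/kb. The coding length put 3 genes (Abca2, Atp13a1 and Atp7b) on the other side of the median, and dividing by the unique part of the mRNA moved 0. That division was made for the 46 genes and not for the other listed genes, and it can only raise a level. The median level of the 46 genes was 11.98 CPM/kb. Over the members that passed the minimum of 2 CPM, which drops low genes, it was 13.004 CPM/kb. With the coding length the median of the 46 was 21.5 CPM/kb, where the median of all genes was 12.1, since coding lengths are shorter than mRNAs. Of the 10 highest genes, 9 were also in the 10 highest by mean CPM (Atp13a3 in place of Abcg5), and 8 by coding length (Abce1 and Atp13a3 in place of Abca3 and Abcg5). A coding length was found for 96.7% of listed genes and all 46. The length taken from a table of proteins was not run. No paired analysis was possible because the values are means over all libraries. The precision of the levels cannot be given without values for each mouse.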
